A study of Arabidopsis thaliana with 8 samples.

Results

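Roots of the Gα null mutant gpa1-2 were compared with roots of its wild type, ecotype WS, after both had been treated with ATP. The comparison took every gene that reached 1 FPKM in at least 1 of the 2 ATP-treated libraries and had a summed scaled count of 12 or more over both, which kept 18673 of the 33544 genes in the tables. FPKM is the number of fragments on a gene, scaled to the length of its exons and to the depth of the library. The count minimum removed 1101 of 19774 genes. Just inside it was AT4G17680, with a count sum of 12.03 and 0.806 FPKM in WS against 1.32 FPKM in gpa1-2. AT3G54520, with a count sum of 11.99 and 0.775 against 1.34 FPKM, was just outside.

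The study asked how roots sense extracellular ATP and what Gα does in that response. According to the labels, seedlings of 4 days on 1/2 MS medium were moved to the same medium with ATP for 60 min, and total RNA of the roots was taken. The groups are untreated WS, ATP-treated WS, untreated gpa1-2 and ATP-treated gpa1-2, with 2 biological replicates each, 8 samples in all, but the tables hold 1 value per gene and group. The WS plants are wild type, and gpa1-2 is a single mutant line in the WS background, so an effect of GPA1 and of anything else that this line carries cannot be told apart. The labels give no ATP concentration, and the age and concentration differ between the sources. Each column carries just a number. The genotype was taken from the name under which each pair of columns was deposited. The ATP state was assigned through the direction of the genes marked there, whose totals equal those the study gives, and through the rule of this comparison. No value below has a replicate error, no test between the genotypes could be made, and each difference describes 2 libraries.

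ATP leaves plant cells through secretion or wounding and acts outside the cell as a signal that is seen by a lectin receptor kinase, DORN1. The heterotrimeric G protein couples receptors at the plasma membrane to calcium, reactive oxygen and ion channels. In Arabidopsis it consists of the Gα subunit GPA1, the Gβ subunit AGB1 and a Gγ subunit, and loss of Gα is known to alter responses to several hormones and stresses.

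A difference here is the log2(FPKM + 1) of gpa1-2 minus that of WS, so that 1 is about a doubling of a well expressed gene. The added 1 makes the difference of a low gene smaller than its ratio. Sizes of 1 or more were counted. Where an interval is given, it is the exact 95% interval of the log2 ratio of scaled counts, computed from the recovered reads (Clopper-Pearson, conditional on their total). It is meant to cover counting error only, and whether plants of a genotype vary more than that was not tested. Each column, called a library here, appears to be the sum of 2 parts. Genes with 16 recovered reads split 8 and 8 between these parts in 80.2% to 86.4% of cases, against 19.6% for a binomial split. Genes with 4 recovered reads departed the other way, with all reads in a single part in 55.0% to 63.6% of cases, against 12.5%. Whether the interval covers counting error in full for such reads is therefore not known. Recovered depth was 11769876 to 13483769 reads per library.

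GPA1 itself was at 51.9 FPKM in untreated WS and 28.6 in untreated gpa1-2. After ATP it was at 46.5 in WS and 31.1 in gpa1-2, a difference of -0.57 (interval -0.73 to -0.44). The transcript of the disrupted gene was lower but present in the libraries labelled gpa1-2, and where in the gene these reads fall is not known.

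Most genes were alike in both ATP-treated libraries. The levels correlated at 0.985 (Pearson, across 18673 genes, which are not independent replicates), the middle 50% of differences lay between -0.18 and 0.21, and 90% lay between -0.50 and 0.53. In all, 183 genes (0.98% of those compared) differed by 1 or more. Of these, 85 (0.455%) were higher in gpa1-2 and 98 (0.525%) were lower. The interval lay on 1 side of no change for 180 of the 183. Because these genes were picked by size from the same 2 libraries, that count describes them and is no support. Fewer than 50 scaled counts over both libraries were held by 45 of the lower and 37 of the higher genes, as by 15.2% of all genes compared. Only 6 genes were lower and 3 were higher by 2 or more.

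**Figure D1:**
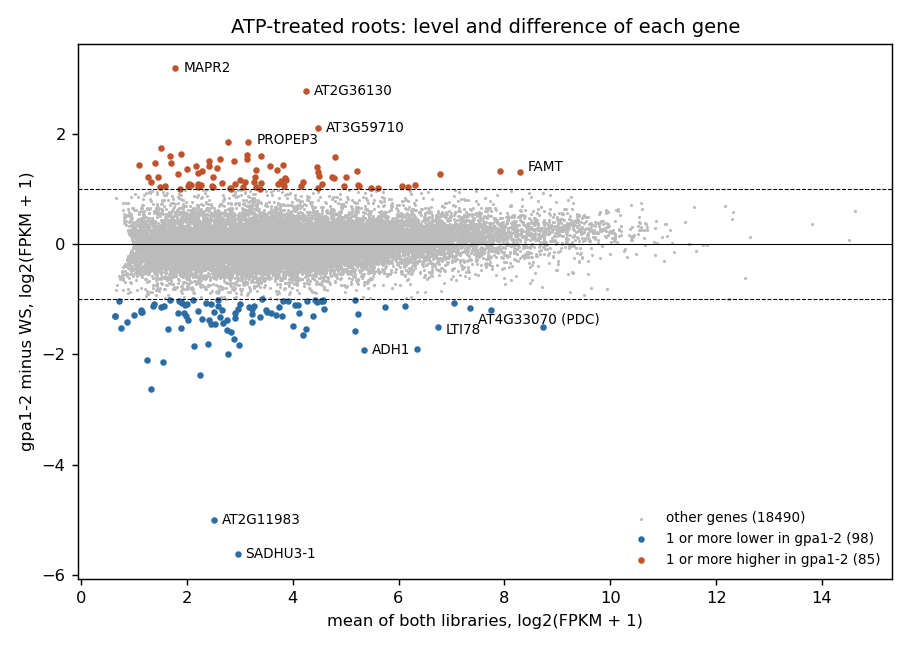
Each point is a gene of the comparison, with its mean log2(FPKM + 1) over both ATP-treated libraries on the x axis and gpa1-2 minus WS on the y axis; dashed lines mark a difference of 1. The 98 lower genes (blue) and the 85 higher genes (orange) lie at all but the highest levels. SADHU3-1 and AT2G11983 lie farthest from 0 among the lower genes and MAPR2 among the higher ones.

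Most genes of the response to low oxygen were below 0 in ATP-treated gpa1-2. Plant cells that run short of oxygen turn from respiration to fermentation, and a core set of genes for ethanol fermentation, sucrose breakdown and oxygen sensing is switched on. This list and those below were chosen with earlier results of these data known, so their counts describe and are no independent support. All 26 genes of this list were in the comparison. By 1 or more, 8 were lower in gpa1-2 and none was higher, beside 0.525% and 0.455% of all genes. Of the 26, 23 were below 0, against 47.9% of all genes, and the median difference was -0.56 against 0.02 over all genes. In a bulk sample, fewer cells with a transcript and less of it per cell cannot be told apart.

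The fermentation enzymes were among the lower genes. ADH1, the alcohol dehydrogenase that makes ethanol, was at 2.24 FPKM in untreated WS and 1.47 in untreated gpa1-2, and at 78.3 in ATP-treated WS and 19.9 in ATP-treated gpa1-2. The difference after ATP was -1.92 (interval -2.16 to -1.79), a ratio of gpa1-2 to WS of 0.255. ADH1 was thus far above its untreated level in both genotypes after ATP, and lower in the mutant. AT4G33070, a pyruvate decarboxylase, which feeds acetaldehyde to ADH1, was at 24.98 and 20.53 FPKM in untreated WS and gpa1-2 and at 243 and 108 FPKM after ATP, a difference of -1.16 (interval -1.23 to -1.10). SUS4, a sucrose synthase, was at 6.44 and 4.32 FPKM untreated and at 30.7 and 14.2 FPKM after ATP, a difference of -1.05. Their homologues PDC2 (67.0 FPKM in WS and 46.0 in gpa1-2 after ATP) and SUS1 (75.6 and 43.5 FPKM) differed by less, -0.53 and -0.79.

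The other 5 lower genes of this list belong to transport, oxygen sensing and its control. NIP2;1, a channel for lactic acid, was at 2.77 and 2.11 FPKM in untreated WS and gpa1-2 and at 61.2 and 19.98 FPKM after ATP, a difference of -1.57. ERF71, a group VII ERF transcription factor of this response, was at 9.88 FPKM in ATP-treated WS and 3.21 in gpa1-2 (difference -1.37, from 54 and 19 reads). AT5G39890, annotated as a probable thiol dioxygenase, was at 14.1 and 6.52 FPKM (difference -1.001, and -0.96 with quantile normalization). The desaturase gene FTM1 (20.6 and 9.58 FPKM, difference -1.03) and the uncharacterized AT5G10040 (78.6 and 35.2 FPKM, difference -1.14) had the same direction. In untreated roots these 8 genes differed by -0.50 to 0.26. The list as a whole was already mostly below 0 there, with 5 of 26 genes above 0 and a median of -0.18, against -0.02 over all genes, and SUS4 (-0.48) and AT5G39890 (-0.50) lay below the 5th percentile of all genes, -0.44.

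The list was not uniform. The phytoglobin HB1 (109 FPKM in WS and 74.2 in gpa1-2 after ATP, difference -0.55), the transcription factor gene AT3G10040 (-0.75) and the alanine aminotransferase AlaAT1 (-0.31) were lower by less than 1. ERF73, the closest relative of ERF71 in the list, stood at 96.4 FPKM in WS and 82.3 in gpa1-2 (-0.23), and LBD41 at -0.33. Above 0 were SRO5 (96.5 and 146 FPKM, difference 0.59), the calmodulin-like CML38 (106 and 136 FPKM, 0.35) and the thioredoxin-like ACHT5 (0.27), and in untreated roots the same 3 genes differed by -0.62, -0.87 and -0.15. With a pseudocount of 5 in place of 1, 4 of the 8 genes were still lower by 1 or more. ADH1, NIP2;1 and AT5G10040 overlap another annotated gene, and how the counting treated shared reads is not given in the sources used here.

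**Figure D2:**
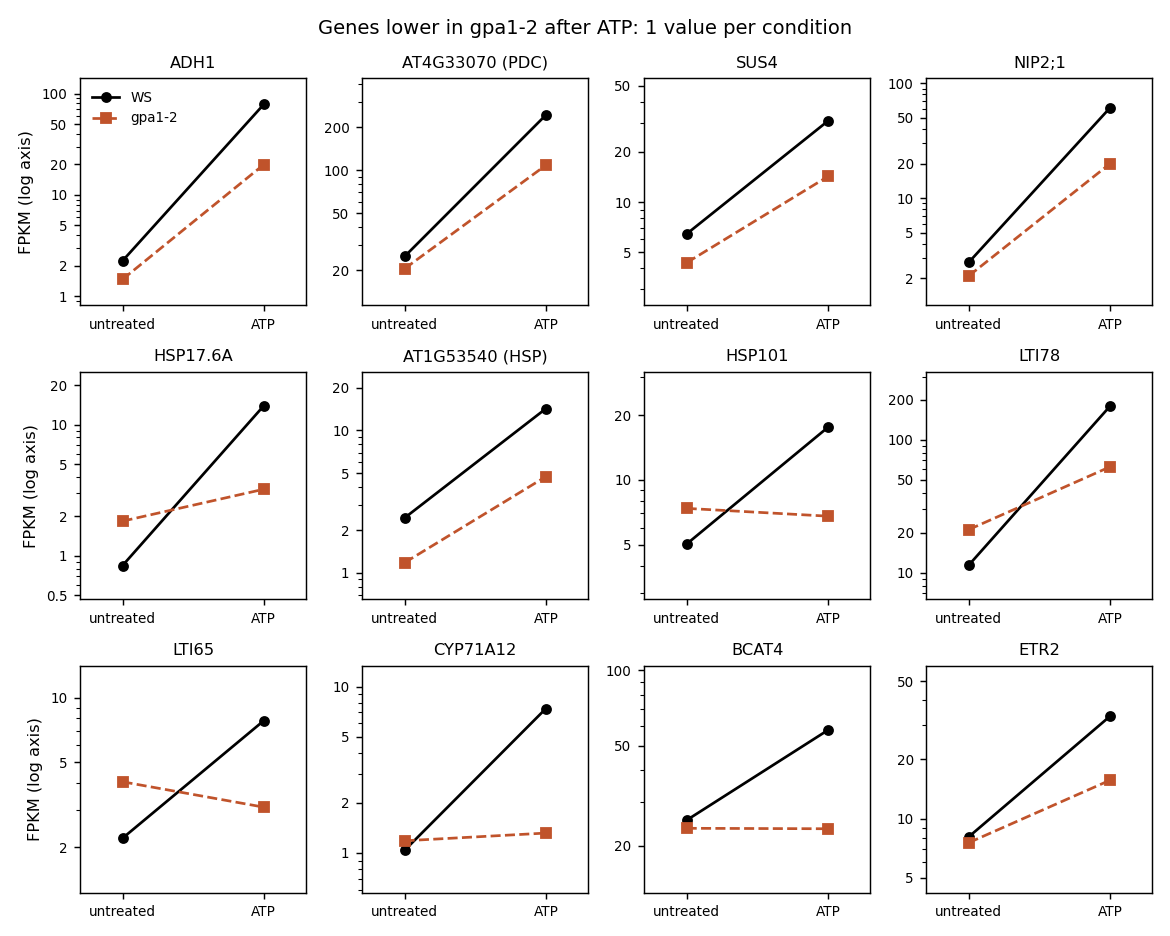
FPKM on a log axis in untreated and ATP-treated roots of WS (black circles) and gpa1-2 (orange squares) for 12 genes that were lower by 1 or more in ATP-treated gpa1-2, 1 value per group, with no error bars because no replicate values exist. For ADH1, AT4G33070, SUS4 and NIP2;1 gpa1-2 is already somewhat lower untreated, both lines go up, and gpa1-2 is farther below WS after ATP, whereas HSP101, CYP71A12 and BCAT4 are near their untreated level in ATP-treated gpa1-2.

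Every heat shock gene of the list was below 0 in ATP-treated gpa1-2, though not all by 1 or more. Heat shock proteins are chaperones that keep damaged proteins from clumping, and many of them are nearly silent in unstressed roots. Of 17 genes, 8 were lower by 1 or more (0.525% of all genes were) and all 17 were below 0 (47.9% of all genes), with a median of -0.97. Among these 8, HSP21 and ATHSP22.0 were below 1 FPKM in gpa1-2 and met the filter through WS alone. The filter thus fixed their direction, and they are no support. In untreated roots 9 of the 17 were above 0 and the median was 0.21.

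The lower genes were mainly small heat shock proteins, and they came from few reads. HSP17.6A was at 0.844 FPKM in untreated WS and 1.84 in untreated gpa1-2, and at 14.0 and 3.22 FPKM after ATP (68 and 17 reads), a difference of -1.83. HSP17.6II was at 0.542 and 0.527 FPKM untreated and at 10.6 and 2.93 FPKM after ATP (60 and 18 reads), a difference of -1.56. AT1G53540, annotated as a class I small heat shock protein, was at 14.2 and 4.74 FPKM after ATP (-1.41) and HSP17.4 at 15.6 and 5.61 FPKM (-1.32). HSP21 of the chloroplast and ATHSP22.0 had 20 reads each in WS and 4 each in gpa1-2 (-1.24 and -1.23), and HSP23.6-MITO of the mitochondrion had 38 and 15 (-1.08).

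The larger chaperones gave firmer counts. HSP101, which pulls proteins out of aggregates, was at 5.05 FPKM in untreated WS and 7.38 in untreated gpa1-2, and at 17.55 and 6.79 FPKM after ATP, a difference of -1.25 (interval -1.59 to -1.15). In gpa1-2 its level after ATP was therefore close to the untreated one. Hsp70b (14.3 and 6.81 FPKM) fell just short of the threshold at -0.97, HSP70 differed by -0.45 and HSP90.1 by -0.27. The heat stress factor HSFA2 (4.83 and 2.78 FPKM) differed by -0.63, HSFA7A by -0.51 and AT-HSFA7B, with 20 reads in each library, by -0.08. With a scaled count sum of 50 or more the list had 3 lower genes and a median of -0.62, and with a pseudocount of 5 it had 1 lower gene and a median of -0.44.

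Among genes of dehydration and cold, 3 of 17 were lower by 1 or more, and LTI78 had the largest difference. LTI78, also known as RD29A, encodes a hydrophilic protein that is induced by cold, drought and abscisic acid. It was at 11.4 FPKM in untreated WS and 21.1 in untreated gpa1-2, and at 179.6 and 62.7 FPKM after ATP, a difference of -1.50 (interval -1.60 to -1.44, from 4676 and 1769 reads). The order of the genotypes was thus reversed between untreated and treated roots, where the untreated difference was 0.83. Its neighbour LTI65 (RD29B) showed the same order, with 2.21 and 4.05 FPKM untreated and 7.82 and 3.08 FPKM after ATP (-1.11). Of the 24 genes of the list, 17 were in the comparison, 3 were lower by 1 or more (0.525% of all genes) and 16 were below 0 (47.9% of all genes), with a median of -0.53. The third lower gene was the lipid transfer protein LTP3 (5.52 and 1.53 FPKM, 30 and 9 reads, -1.37). Many such genes are also active in seeds, and the seed storage genes SESA5 and CRU3 had 37 and 33 reads in ATP-treated WS and 0 in ATP-treated gpa1-2. Their part in the result was not tested.

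The abundant members of this list differed little. The dehydrin COR47 was at 3283 FPKM in WS and 3031 in gpa1-2 after ATP (-0.12), ERD10 at 973 and 820 (-0.25) and KIN2 at 1097 and 1131 (0.04). The dehydrin LTI30 lay between, with 544 and 317 FPKM (-0.78), and LEA7 with 28.5 and 16.9 FPKM (-0.72). LEA7 too was higher in untreated gpa1-2, by 1.44. Genes of abscisic acid synthesis and signalling had 12 of 14 members in the comparison and none at 1 or more in either direction. Their median was -0.22, the phosphatase gene ABI2 had the largest difference (-0.57), and NCED3, which encodes the key enzyme of abscisic acid synthesis, differed by 0.17.

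Most genes of the jasmonate pathway were above 0. JAZ proteins repress jasmonate responses and their genes are themselves switched on by jasmonate, so that their transcripts report the activity of the pathway. All 12 JAZ genes were in the comparison. Only JAZ8 reached 1 (0.455% of all genes were as much higher), but 10 of the 12 were above 0, against 52.1% of all genes, with a median of 0.50. In untreated roots the same genes were mostly lower in gpa1-2, with a median of -0.44 and 2 of the 12 above 0.

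JAZ8 was at 65.5 FPKM in untreated WS and 27.6 in untreated gpa1-2, and at 15.1 and 33.3 FPKM after ATP, a difference of 1.09 (interval 0.70 to 1.59). In WS the ATP-treated library was far below the untreated one, while in gpa1-2 the levels were close. JAZ10 was at 323 and 225 FPKM untreated and at 124 and 248 FPKM after ATP and ended just below 1. TIFY7, which is JAZ9, was at 193 and 130 FPKM untreated and at 52.5 and 104 FPKM after ATP (0.97). TIFY10B (0.76), JAZ5 (0.69) and JAZ6 (0.57) had the same order of genotypes, JAZ12 was at 0.17, and JAZ7 (-0.16) and JAZ4 (-0.34) were below 0.

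Among 19 of 21 genes that make, break down or respond to jasmonate, 2 were higher by 1 or more (0.455% of all genes) and 15 were above 0 (52.1% of all genes), with a median of 0.26. LOX3, a lipoxygenase at the start of jasmonate synthesis, was at 12.9 and 9.66 FPKM in untreated WS and gpa1-2 and at 2.66 and 8.52 FPKM after ATP, a difference of 1.38 (interval 1.32 to 2.05). The allene oxide cyclase AOC1 was at 6.31 and 13.7 FPKM after ATP (1.007), a value that upper-quartile scaling, quantile normalization and median centring each put below 1. The allene oxide synthase AOS was at 120 and 209.9 FPKM (0.80). The regulator MYC2 was alike in both (74.4 and 80.5 FPKM, 0.11), as was VSP1 (75.2 and 75.4 FPKM, 0.00). Among the enzymes that inactivate jasmonate JRG21 was higher (15.9 and 29.7 FPKM, 0.86) and the sulfotransferase gene ST2A lower (47.9 and 31.9 FPKM, -0.57), neither by 1. The 4 genes below 0 were VSP2, with the lowest value of the list (-0.59), ST2A, CYP94C1 (-0.51) and AT2G38240 (-0.14).

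Genes of the danger response were more often above than below 0, and few reached 1. PROPEP genes encode precursors of Pep peptides, which are released from damaged cells and seen by the receptors PEPR1 and PEPR2, and WRKY and ZAT factors carry immune responses into the nucleus. Of 24 such genes, all of them in the comparison, 3 were higher by 1 or more (0.455% of all genes were) and 18 were above 0 (52.1% of all genes), with a median of 0.24. PROPEP3 was at 92.6 FPKM in untreated WS and 78.4 in untreated gpa1-2, and at 3.72 and 16.0 FPKM after ATP (12 and 56 reads), a difference of 1.85. PROPEP2 was at 39.6 and 39.3 FPKM untreated and at 5.08 and 17.5 FPKM after ATP (1.603), and WRKY30 at 30.4 and 29.9 FPKM untreated and at 4.14 and 14.1 FPKM after ATP (1.55, interval 1.31 to 2.24). All 3 were thus below their untreated level in both ATP-treated libraries, and less far below it in gpa1-2.

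PROPEP1 (50.3 and 87.8 FPKM after ATP, 0.79), WRKY40 (60.0 and 106 FPKM, 0.81) and PEPR2 (8.42 and 12.7 FPKM, 0.54) had the same order without reaching 1. WRKY33 (44.9 and 42.7 FPKM, -0.07), SZF1 (22.6 and 24.4 FPKM, 0.11) and STZ (41.3 and 46.3 FPKM, 0.16) were close to equal, and ZAT6 was lower in gpa1-2 (79.8 and 54.6 FPKM, -0.54). Of 12 touch and calcium genes, AT3G01830, annotated as the calcium-binding protein CML40, was higher by 1.24 (80.2 and 70.7 FPKM untreated, 13.7 and 33.8 FPKM after ATP), and 9 were above 0. AT1G76640, annotated as CML39, was at 125.5 and 247 FPKM (0.97). TCH2, TCH3 and TCH4, named for their response to touch, differed by 0.10, 0.09 and -0.20, and the calcium ATPase gene AT3G22910 by -0.73.

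**Figure D3:**
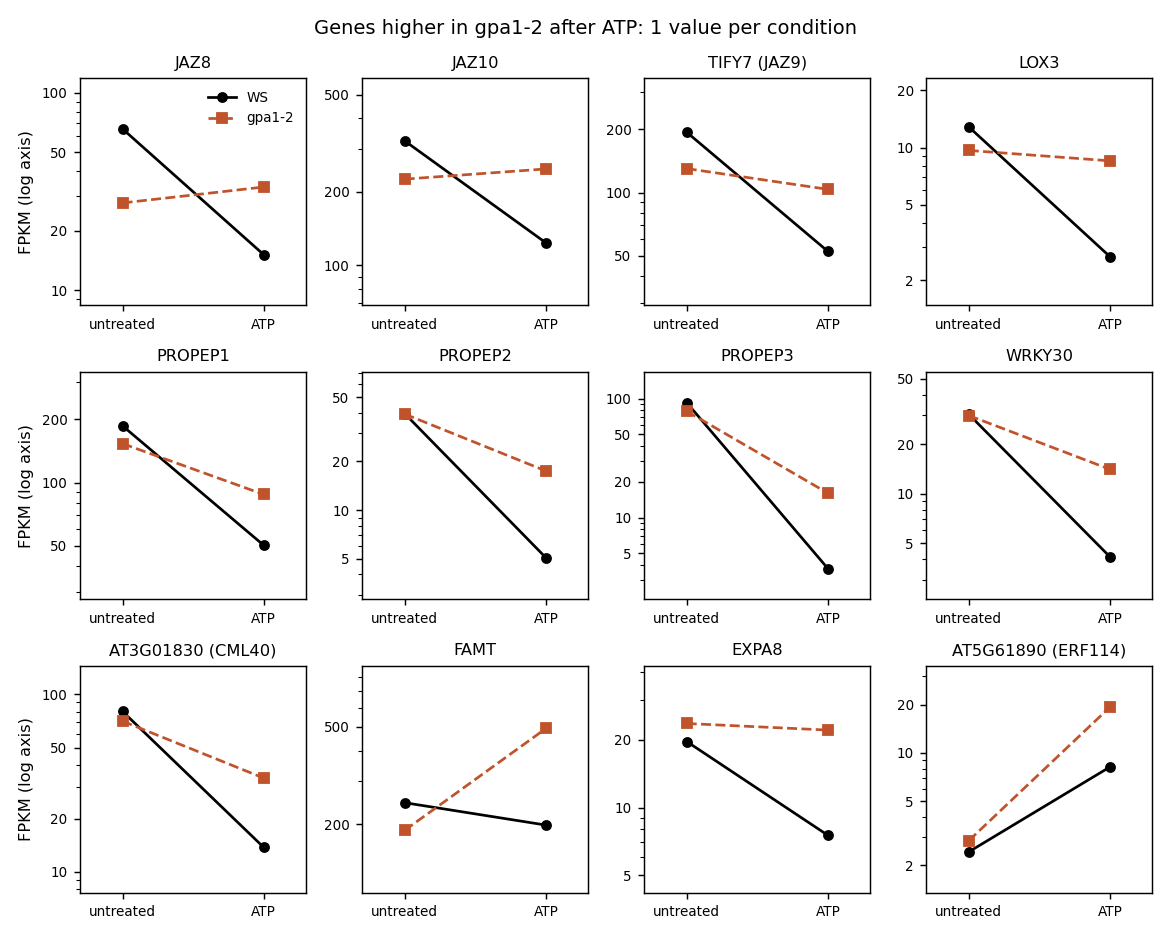
FPKM on a log axis in untreated and ATP-treated roots of WS (black circles) and gpa1-2 (orange squares) for 12 genes that were higher in ATP-treated gpa1-2, 9 of them by 1 or more and JAZ10, TIFY7 and PROPEP1 by less, 1 value per group with no error bars. For the PROPEP genes and WRKY30 both lines go down from near the same untreated value and gpa1-2 stays higher, whereas for JAZ8, JAZ10, TIFY7 and LOX3 the WS line goes down and crosses that of gpa1-2.

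In these 4 columns each ATP-treated library is part of the difference between genotypes and also of that genotype's step from untreated to ATP, so neither value supports the other. Side by side, the step in log2(FPKM + 1) was 4.61 in WS and 3.08 in gpa1-2 for ADH1, 3.87 and 1.53 for LTI78, and 1.62 and -0.11 for HSP101. For JAZ8 it was -2.05 and 0.26, for LOX3 -1.92 and -0.16, and for PROPEP3 -4.31 and -2.22.

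Of the 11 genes that the study followed by real-time qPCR, which it chose on these samples, 8 were in the comparison, 1 was higher and 1 was lower by 1 or more. AT5G61890, annotated as ERF114, was at 2.42 and 2.84 FPKM untreated and at 8.19 and 19.4 FPKM after ATP (1.15). The study's qPCR measured the change with ATP within each genotype, which is not the difference in level given here. For ERF114 it reported weaker promotion by ATP in the Gα null mutants than in WS, whereas the FPKM above rose more in gpa1-2. Of the 8 genes, 5 were below 0 and 3 above 0, against 47.9% and 52.1% of all genes. Those below 0 included AT3G27220 (-0.57), the cyclin gene CYCP3;1 (-0.54) and CRK5 (-0.30). ABCA8, the ABC transporter gene called ATH7 in the study, was at 3.68 and 12.7 FPKM untreated and at 6.82 and 2.04 FPKM after ATP (-1.36), so that the genotypes changed places. WAG1 and WAG2, kinases that direct auxin carriers, differed by 0.08 and 0.00 after ATP, but by 0.76 and 0.48 before it. By qPCR the study reported that ATP raised both in WS, with no significant rise in the mutants.

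No gene of auxin transport reached 1, with 15 of 18 genes in the comparison and a median of -0.07. PIN2, the carrier that moves auxin in the outer layers of the root tip, was at 90.5 FPKM in ATP-treated WS and 65.0 in gpa1-2 (-0.47, interval -0.57 to -0.39). PIN3 (0.22), PIN7 (-0.22) and AUX1 (-0.07) were closer, whereas the exporters ABCB1 (37.7 and 22.3 FPKM, -0.73) and ABCB19 (47.8 and 32.7 FPKM, -0.53) were lower. Early auxin response genes, 16 of 20 in the comparison, had a median of -0.02 and none at 1. Here GH3.3, which encodes an auxin-conjugating enzyme, had the largest difference (2.67 and 0.935 FPKM, 58 and 22 reads, -0.92), while IAA1, IAA2, IAA14 and LBD16 lay between -0.05 and 0.08. The list did not hold every IAA gene, and IAA31, outside it, was higher by 1.11.

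Ethylene genes, 21 of 24 in the comparison, held 1 lower and 1 higher gene and a median of -0.06. The lower gene was ETR2, an ethylene receptor, at 33.2 and 15.7 FPKM after ATP against 8.08 and 7.54 untreated (-1.04, interval -1.24 to -0.93), and the higher one was AT5G61890. ABR1, an ERF factor, was at 70.5 and 58.5 FPKM (-0.27) and ERF13 at 9.31 and 16.1 FPKM (0.73).

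No gene of the G protein or of ATP sensing reached 1. The other 16 genes of the G protein list lay between -0.31 and 0.33, among them AGB1 (47.6 and 51.4 FPKM, 0.11), the regulator RGS1 (20.8 and 20.7 FPKM, 0.00) and the extra-large Gα genes XLG1, XLG2 and XLG3 (-0.07, 0.05 and -0.31). DORN1 was at 25.6 FPKM in ATP-treated WS and 35.4 in gpa1-2 (0.45, against -0.31 untreated), AT3G45430, a further lectin receptor kinase gene, at 0.775 and 1.79 FPKM (0.65, and 1.11 with a pseudocount of 0.1), and the apyrase genes APY1 and APY2, whose products break down ATP, differed by -0.06 and -0.04.

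Several groups showed small differences, mostly of the same sign, beside 52.1% of all genes above 0 and 47.9% below. All 12 mitotic cell cycle genes were above 0 without reaching 1, with a median of 0.36 and CYCB1;3 at the top (9.77 and 16.6 FPKM, 0.71). In untreated roots 10 of these 12 were already above 0, with a median of 0.11. Of 19 aquaporin genes 17 were above 0, with a median of 0.36, from PIP2E (-0.69) to TIP2;3 (54.2 and 102.5 FPKM, 0.91). Of 7 genes of the thalianol and marneral clusters, which make root triterpenes, 6 were above 0, with MRN1 at 36.7 and 72.2 FPKM (0.96) and the acyltransferase gene AT5G47980 at 16.9 and 8.57 FPKM (-0.90). All 5 nitrate genes were below 0, with a median of -0.45 and the nitrate transporter gene NRT1.1 at 157.6 and 101.1 FPKM (-0.63). All 6 flavonol genes were below 0, with a median of -0.41 after ATP and -0.86 before. The untreated medians were -0.12 for aquaporins, -0.23 for the thalianol and marneral clusters and -0.10 for nitrate genes. The 7 reference genes ran from -0.15 (UBQ10) to 0.40 (PEX4) with a median of 0.00.

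The remaining lists held single genes past 1. In the indole glucosinolate, camalexin and PR list, 9 of 14 genes were in the comparison, and CYP71A12, a cytochrome P450 of indole defence compounds, was at 1.04 and 1.18 FPKM untreated and at 7.38 and 1.32 FPKM after ATP (-1.85, interval -3.18 to -1.85). CYP71A13, its close paralogue, had 16 reads in ATP-treated WS and 0 in the other libraries, missed the minimum and may share reads with it. The iron list (10 of 19 genes, median 0.14) held bHLH39 (7 and 24 reads, 1.04), with the regulator FRU at 27.7 and 47.3 FPKM (0.75). The phosphate list (10 of 12, median -0.04) held the noncoding RNA gene IPS1 (10 and 50 reads, 1.85), and the sugar starvation list (6 of 6, median -0.13) held DIN2 (3.58 and 1.27 FPKM, -1.01). No gene passed 1 among 12 genes of endoplasmic reticulum stress (median 0.10) and 15 of the circadian clock (median -0.15), where GI was lowest (43.3 and 26.0 FPKM, -0.72).

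**Figure D4:**
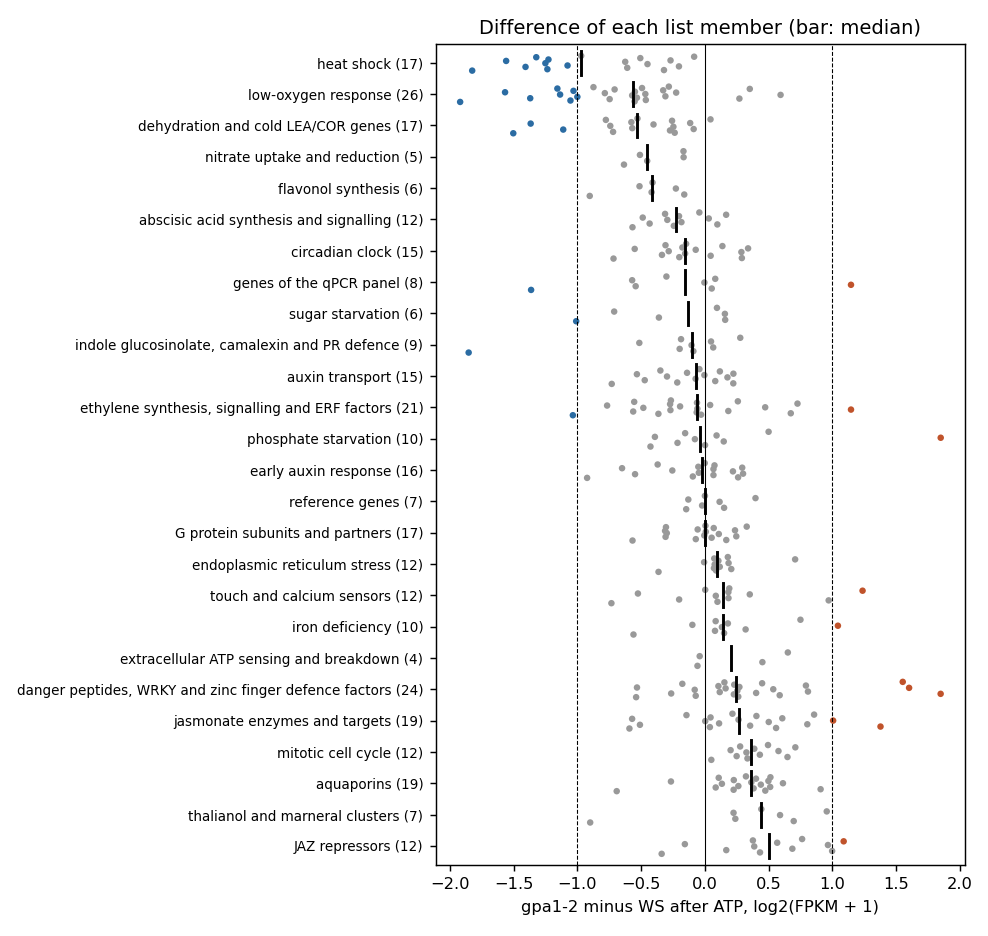
Each point is a gene, placed by its gpa1-2 minus WS difference in log2(FPKM + 1) after ATP, for the 26 lists with the number of genes compared in brackets; black bars are medians and dashed lines mark 1. Heat shock (median -0.97) and low-oxygen genes (-0.56) lie at the low end and JAZ genes (0.50) at the high end, with blue and orange points past the lines.

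Together these 26 lists, the 8 lists of cell type markers and 4 lists drawn up after the values had been seen held 44 of the 183 genes, 32 of the lower and 12 of the higher ones, and 139 were in no list. The share of all compared genes in these lists was not counted, and the 4 later lists were drawn from the 183. The 44 therefore only say where the named genes come from. By size, among genes with a scaled count sum of 50 or more, the 12 largest differences downward included SADHU3-1, AT3G22970, AT4G14060, EARLI1, CIB1, LHB1B2 and CYP735A2 besides genes named above. CIB1, a transcription factor that binds cryptochrome, was at 0.979 and 2.58 FPKM untreated and at 31.4 and 10.1 FPKM after ATP (-1.54). EARLI1, annotated as a lipid transfer protein, was at 11.3 and 3.096 FPKM after ATP (-1.59). CYP735A2, which makes trans-zeatin type cytokinin, was at 5.32 and 8.31 FPKM untreated and at 9.50 and 2.92 FPKM after ATP (-1.42). The chlorophyll-binding protein gene LHB1B2 was at 8.58 and 2.51 FPKM (-1.45). CIB1, EARLI1 and LHB1B2 overlap another annotated gene, as do 38 of the 183 genes. The share among all genes compared was not counted, so this number cannot be called high or low.

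The 12 largest upward included MAPR2, AT2G36130, AT3G59710, CRF10, AT4G37710, TPS04, FRO4, EXPA8 and AAE12. EXPA8, an expansin that loosens cell walls, was at 19.7 and 23.63 FPKM untreated and at 7.53 and 22.1 FPKM after ATP (1.44). TPS04, which makes the volatile precursor geranyllinalool, was at 2.16 and 8.03 FPKM after ATP (1.52). AT4G37710, a VQ motif gene, was at 44.7 and 27.8 FPKM untreated and at 15.2 and 47.5 FPKM after ATP (1.58). The ferric reductase gene FRO4 was at 0.946 and 4.40 FPKM (1.47) and the acyl-activating enzyme gene AAE12 at 2.25 and 7.75 FPKM (1.43). AT3G59710, with 9.72 and 45.6 FPKM (2.12), overlaps another annotated gene.

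The most abundant transcripts differed by less than 1. Among the 10 of highest summed FPKM, the extensin gene EXT3 was at 7346 FPKM in WS and 4831 in gpa1-2 (-0.60), and the extensin-like AT2G43150 at 6829 and 3435 FPKM (-0.99). The metallothionein gene MT1A was higher (0.61), and the beta-glucosidase gene PYK10 and the jacalin-type PBP1 were at 0.13 and -0.02.

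Untreated roots served to show which differences were there without ATP. The untreated comparison shares no library with the ATP-treated one. Of the same 18673 genes, 62 (0.332%) were higher and 46 (0.246%) were lower by 1 or more in untreated gpa1-2, 108 in all (0.578%). These genes were kept by their ATP-treated values, so genes found in untreated roots alone are left out. The untreated share is thus not on equal terms with the 0.98% after ATP. Only 8 genes (0.0428%) passed 1 in the same direction in both comparisons, 6 of them lower and 2 higher, and 7 (0.0375%) passed in opposite directions. The differences correlated at -0.0024 across all genes (Pearson), and at -0.016 across the 15440 genes with a scaled count sum of 50 or more in both pairs of libraries. Among the 98 genes lower after ATP, 44 were below 0 in untreated roots, and among the 85 higher ones 40 were above 0, beside 49.3% of all genes with the same sign in both.

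**Figure D5:**
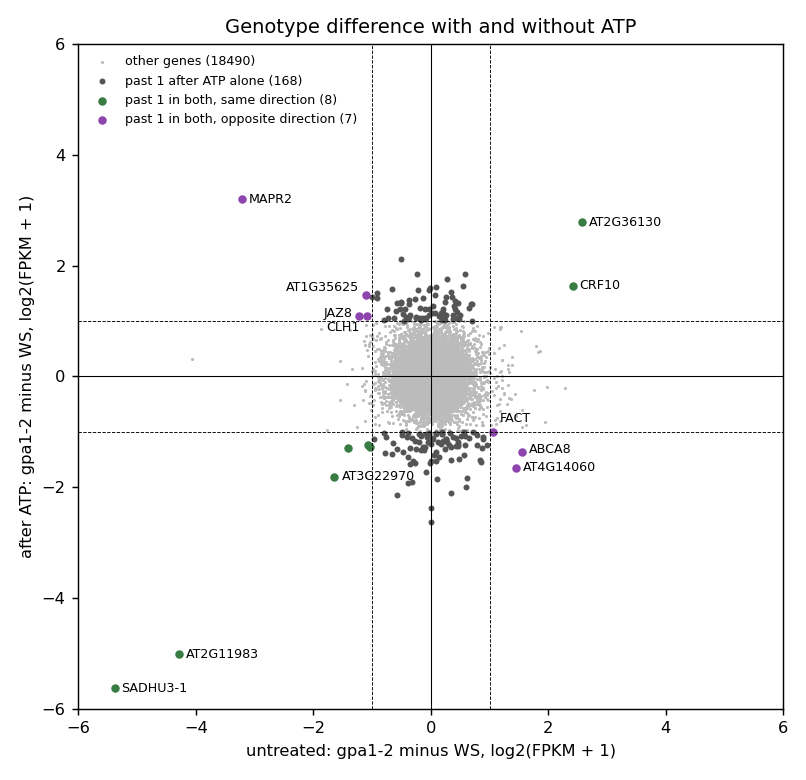
Each point is a gene, with its gpa1-2 minus WS difference in log2(FPKM + 1) in untreated roots on the x axis and in ATP-treated roots on the y axis; dashed lines mark 1 in size. The cloud shows no slope, 8 genes (green) lie past 1 in the same direction in both and 7 (purple) in opposite directions, while 168 (dark grey) are past 1 after ATP alone.

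Among the genes with the same direction in both pairs of libraries, 3 had nearly the same level with and without ATP. SADHU3-1, a retroelement of the Sadhu family, was at 50.1 and 53.7 FPKM in untreated and ATP-treated WS and at 0.225 and 0.104 FPKM in gpa1-2, where it had 2 and 1 reads against 432 and 475 in WS. The reads of AT2G11983 numbered 56 and 64 for WS, against 1 and 0 for gpa1-2. AT2G36130, annotated as a peptidyl-prolyl isomerase, was at 6.56 and 6.25 FPKM in WS and at 43.8 and 48.8 FPKM in gpa1-2, differences of 2.57 and 2.78.

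Further genes with a shared direction were the uncharacterized AT3G22970 (-1.64 untreated and -1.82 after ATP), the efflux carrier gene AT5G52050 (-1.03 and -1.27), the decarboxylase gene AT3G25570 (-1.41 and -1.29, with 0 reads in ATP-treated gpa1-2), the transposon gene AT5G33432 (-1.07 and -1.24) and CRF10, an ERF factor (2.41 and 1.63). Just below the threshold in at least 1 comparison were the arabinogalactan protein gene AGP30 (-1.77 and -0.97), the extensin-like AT1G26250 (-1.25 and -0.92), IGMT4 of indole glucosinolate synthesis (1.17 and 0.90), GSTU12 (1.07 and 0.89), NAC041 (0.97 and 0.78) and the carbonic anhydrase gene BCA3 (0.69 and 1.31).

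The differing genes were spread over the genome. The share at 1 or more after ATP was 0.827% to 1.12% on the 5 nuclear chromosomes, lowest on chromosome 5 and highest on chromosome 3, and 1 lower gene each was on the plastid and mitochondrial genomes. On chromosome 4, 22 genes were lower and 9 higher, while on chromosome 1 the numbers were 21 and 25. Of the 10 genes on each side of GPA1 on chromosome 2, 15 were in the comparison and none reached 1. Their differences ran from -0.27 to 0.94, and the 4 genes farthest out on one side, AT2G26360, AT2G26370, AT2G26380 and AT2G26390, had 0.80, 0.94, 0.82 and 0.84. The same 4 genes were at -0.62 to -0.19 in untreated roots. AT3G22970 and AT3G22910, both lower in each comparison, lie on chromosome 3 with 14 genes between them.

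Markers of root tissues were present in both ATP-treated libraries, and none of their genes apart from the green tissue list differed by 1. The summed FPKM of 6 endodermis markers was 957 in WS and 1305 in gpa1-2 (median difference 0.40), with CASP1 at 391 and 534. For 7 root hair markers the sums were 590.3 and 693 FPKM (0.11), for 6 xylem markers 399.5 and 424 (0.05), for 4 phloem markers 58.9 and 49.1 (-0.36), for 4 root cap markers 54.7 and 58.5 (-0.08) and for 3 stem cell niche markers 56.5 and 54.7 (-0.06). Both non-hair epidermis markers were below 0 (-0.61 for GL2 and -0.01 for MYB66). Green shoot genes were near the floor, with 6 of 13 in the comparison and sums of 34.3 FPKM in WS and 22.3 in gpa1-2, and 3 and 2 of the 13 listed at 0. CAB1 of that list was lower (7.65 and 2.32 FPKM, -1.38), beside LHB1B2 above. What part these shifts in tissue markers have in the differences was not tested.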

How the data were processed

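Total RNA of roots from 8 samples (4 groups of 2) was deposited as 2 tables with 1 value per gene and group. The authors deposited FPKM values and, beside them, scaled counts, a signal on a common scale that is not whole numbers. The tables also hold the authors' own fold changes, p-values and marks, which were not used. The study's methods and the labels describe microarray processing, which does not match these columns. How reads were aligned and counted is not given in the sources used here. Columns of no sample number 0, and 13 emptied lines were not analysed here.

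Tables were joined on gene ID, and 32797 of 33544 IDs took a RefSeq name (747 did not). Genes needed 1 FPKM in either ATP-treated column and a scaled count sum of 12. Differences are gpa1-2 minus WS in log2(FPKM + 1). Reads were recovered from the steps of low scaled counts, of which 98.9% to 99.3% were whole within 0.1 read. Each column appears to be the sum of 2 parts, which were not used as replicates. Intervals are exact at 95% (SciPy 1.17.1, with Python 3.11.15, NumPy 2.4.6, pandas 2.3.3 and matplotlib 3.10.9) and the procedure was tested on simulated data.

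Named were the list members, the 12 largest differences each way with a count sum of 50 or more, the 8 largest each way with the same sign in both genotype comparisons, and the 10 most abundant genes. The genes compared and the lists were chosen with earlier results of these data known, and 4 lists and 2 alternatives were added after the values were seen. The alternatives changed the pseudocount, the filters, the scaling, the threshold and the measure.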

Additional observations from a re-analysis of the deposited data

Results flagged for a closer look

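The following 7 genes differed by 1 or more in both comparisons but in opposite directions, with all values of each genotype resting on 1 library per group. The difference between the comparisons was not tested for any of them.

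MAPR2, a probable steroid-binding protein gene, was at 9.43 FPKM in untreated WS and 0.119 in untreated gpa1-2 (275 and 4 reads), and at 0.136 and 9.40 FPKM after ATP (4 and 304 reads). The difference was -3.22 in untreated roots and 3.20 after ATP, and the gene was near 0 in untreated gpa1-2 and in ATP-treated WS alone. For JAZ8, with the FPKM given above, the values were -1.22 untreated and 1.09 after ATP. CLH1, a chlorophyllase gene, was at 2.52 and 0.651 FPKM untreated and 2.29 and 5.96 FPKM after ATP, differences of -1.09 and 1.08. AT1G35625, a RING/U-box gene with 14 and 2 reads untreated and 5 and 32 after ATP, differed by -1.11 and 1.48, and it overlaps another annotated gene.

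The other 3 genes ran the opposite way. AT4G14060, a gene of the major latex protein family, was at 31.5 and 87.6 FPKM untreated and 31.5 and 9.33 FPKM after ATP, differences of 1.45 and -1.65. FACT, an acyltransferase gene, was at 51.3 and 108 FPKM untreated and 50.4 and 24.6 FPKM after ATP (1.06 and -1.01). In both, WS had nearly the same level in each library and gpa1-2 lay on either side of it. ABCA8 of the qPCR panel differed by 1.55 untreated and -1.36 after ATP.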

How the results depend on the processing

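No paired analysis was possible because the tables hold 1 value per group, although the labels number the replicates alike, and for the same reason no replicate could be left out. A search of promoters for motifs was not run, since no promoter sequence was used here. No value changed sign under any alternative for the results that answer a comparison. The counts of genes higher and lower by 1 or more depended on the settings. After ATP (85 and 98) they were 188 and 208 with a pseudocount of 0.1, 23 and 27 with a pseudocount of 5, 50 and 52 at 10 FPKM or more, 255 and 272 with no minimum of counts, 48 and 53 with a scaled count sum of 50 or more, 3 and 6 at a threshold of 2, and 168 and 197 on log2(scaled count + 1). In untreated roots (62 and 46) the same settings gave 155 and 131, 24 and 15, 29 and 25, 152 and 135, 35 and 25, 3 and 4, and 136 and 117. The lower low-oxygen genes (8) were 4 with a pseudocount of 5 and 0 at a threshold of 2. The lower heat shock genes (8) were 1 with a pseudocount of 5, 5 at 10 FPKM, 3 with a count sum of 50 and 0 at a threshold of 2, and their median (-0.97) was -0.44 with a pseudocount of 5 and -0.62 with a count sum of 50. The lower dehydration and cold genes (3) were 1 with a pseudocount of 5, 1 at 10 FPKM and 0 at a threshold of 2, and the higher danger genes (3) were 0 at that threshold. The higher JAZ genes (1) were 2 with a pseudocount of 0.1 or on log2(scaled count + 1) and 0 with a pseudocount of 5 or a threshold of 2. The higher jasmonate genes (2) were 1 at 10 FPKM, median centring, upper-quartile scaling and quantile normalization, and 0 with a pseudocount of 5 or a threshold of 2, and their median (0.26) was 0.17 with quantile normalization. Of the 183 genes, 179 stayed past 1 with median centring, 177 with upper-quartile scaling and 172 with quantile normalization. Under 50 scaled counts, which held for 45.9% of the lower and 43.5% of the higher genes, a difference of 1 rests on few reads.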

Other observations

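Some further groups were noticed among the 183 genes and drawn up as lists after their values had been seen, so their counts describe and do not support. Aliphatic glucosinolates are defence compounds made from methionine. Of 20 genes of their synthesis 19 were in the comparison, 4 were lower by 1 or more in ATP-treated gpa1-2 (0.525% of all genes were) and 4 were above 0, with a median of -0.36 after ATP and -0.10 untreated. BCAT4, the aminotransferase at the start of the chain elongation, was at 25.3 FPKM in untreated WS and 23.5 in untreated gpa1-2, and at 57.8 and 23.4 FPKM after ATP (-1.27, interval -1.50 to -1.12). CYP83A1 (16.0 and 6.43 FPKM after ATP, -1.19) and the methylthioalkylmalate synthase genes IMS2 (101 and 46.0 FPKM, -1.12) and MAM1 (2.78 and 0.747 FPKM, -1.11) had the same order, and CYP79F2 was at -0.89. In untreated roots these 4 lower genes differed by -0.32 to 0.12. MYB28, a regulator of the pathway, differed by -0.28. BCAT4 overlaps another annotated gene.

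Galactinol synthases make the precursor of the protective sugar raffinose. All 4 of their genes were below 0 after ATP (median -0.89) and above 0 untreated (median 0.28). GolS4 was at 1.35 and 2.23 FPKM untreated and 16.6 and 6.50 FPKM after ATP (-1.23), and GolS1 at 8.01 and 11.8 FPKM untreated and 10.6 and 4.52 FPKM after ATP (-1.08). Both overlap another annotated gene. BAG6, a co-chaperone gene in no list, was at 10.7 and 4.19 FPKM after ATP (-1.18).

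CLE genes encode small signalling peptides, and the group from CLE1 to CLE7 is known for its response to nitrogen supply. Of 7 genes 6 were compared, 5 were above 0 and 2 were higher by 1 or more (0.455% of all genes were), with a median of 0.76 after ATP and -0.18 untreated. CLE4 was at 8.77 and 20.8 FPKM after ATP (35 and 90 reads, 1.16), CLE1 had 10 and 26 reads (1.22), CLE5 was at 41.4 and 73.8 FPKM (0.82) and CLE2 at 45.2 and 73.7 FPKM (0.69).

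The methyltransferase gene FAMT, whose product acts on farnesoic acid, was at 245 and 189 FPKM untreated and 199 and 493 FPKM after ATP (1.31). Its neighbour AT3G44870, a similar methyltransferase gene that may share reads with it, was at 229 and 161 FPKM untreated and 151 and 380 FPKM after ATP (1.33).

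Seed storage transcripts were seen in ATP-treated WS alone for 2 genes. SESA5 had 37 reads and CRU3 had 33 reads there, and both had 0 in the other 3 libraries. The summed FPKM of the 10 genes of this list was 12.4 in ATP-treated WS and 2.96 in ATP-treated gpa1-2, with 1 and 5 genes listed at 0. Genes of late embryogenesis abundant proteins outside the lists, AT3G15670 (5.29 and 1.19 FPKM, -1.52), AT3G17520 (2.11 and 0.277 FPKM, -1.28) and AT1G54890 (21.0 and 7.89 FPKM, -1.31), were also lower. Whether seed-derived RNA has a part in the lower dehydration genes was not tested.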
